A study of Arabidopsis thaliana with 9 samples.

Results

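Transcripts were compared between 2 Arabidopsis thaliana mutants of the same nuclear complex, thp1-5 and sac3bc, across all genes measured. The comparison used the 3 libraries labelled thp1-5 and the 3 labelled sac3bc, that is 6 of the 9 libraries of the series, and the 3 libraries of the wild type Col are given beside them. All plants were whole seedlings, 14 days old and untreated, raised at 22 °C in cycles of 16 h light and 8 h dark on half-strength Murashige and Skoog medium that held 1% sucrose. Polyadenylated RNA was sequenced as single-end reads of 150 bp. The allele name thp1-5 marks a mutant of THP1, and sac3bc is a label for a line with mutations in SAC3B and SAC3C. The labels name no alleles for sac3bc and no mutated part for any of these genes, and each genotype is represented by 1 line.

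TREX-2 is a complex of the inner side of the nuclear pore that couples transcription to the export of messenger RNA. THP1 and SAC3 are its core subunits, SAC3 acting as the scaffold on which THP1 and smaller partners assemble, as known best from yeast. In Arabidopsis SAC3 is encoded by the related genes SAC3A, SAC3B and SAC3C, and the title of the series ties the complex to the production of microRNAs.

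Total counts ran from 12814326 to 16706456 in thp1-5, from 16054494 to 17923310 in sac3bc and from 13150850 to 15629037 in Col, and 22400 of 37361 loci passed the filter on low counts. In a principal component analysis the first component held 72.2% of the variance and set both mutants apart from Col. The second held 8.72%. Both components separated thp1-5 from sac3bc without overlap, and on the first sac3bc lay further from Col than thp1-5 did. Levels below are CPM, counts relative to the library's total after scaling by TMM factors, fold changes are log2 values of thp1-5 minus sac3bc with standard errors (SE), and called genes passed edgeR's quasi-likelihood test with a Benjamini-Hochberg adjusted p below 0.05. The labels do not tell whether the 3 libraries of a group stem from different cultures, so the p-values rest on a spread between libraries that may be purely technical.

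All 3 genes after which the genotypes are called differed between the mutants in transcript level. THP1 (AT2G19560, listed in the reference as EER5) had 11.6, 11.1 and 12.7 CPM in the libraries labelled thp1-5, against 6.64, 5.0 and 6.89 CPM in those labelled sac3bc and 11.6, 12.1 and 14.1 CPM in Col. The thp1-5 libraries thus lay with Col, and the sac3bc libraries lay below both. The fold change was 0.93 ± 0.12 (SE, edgeR adjusted p = 1.63e-11).

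SAC3B (AT3G06290) had 30.8, 32.4 and 36.4 CPM in thp1-5, against 23.1, 26.4 and 27.7 CPM in sac3bc and 47.2, 47.0 and 46.7 CPM in Col, a fold change of 0.36 ± 0.06 (SE, edgeR adjusted p = 1.19e-06). SAC3C (AT3G54380) had 12.8, 13.7 and 13.7 CPM in thp1-5, against 7.56, 7.63 and 7.96 CPM in sac3bc and 15.4, 15.8 and 14.3 CPM in Col. Its fold change was 0.80 ± 0.10 (SE, edgeR adjusted p = 7.77e-11), with no overlap between the mutants. Transcript of both genes was counted in the libraries labelled sac3bc, at a lower level than in thp1-5. Because reads are counted along the entire gene, such levels are only a partial check of the labels.

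The largest difference of this group was in SAC3A (AT2G39340), which neither genotype label names. It had 36.7, 39.2 and 40.1 CPM in thp1-5, against 12.1, 13.9 and 12.4 CPM in sac3bc and 67.4, 59.4 and 66.3 CPM in Col. All 3 groups were apart, and the fold change between the mutants was 1.59 ± 0.07 (SE, edgeR adjusted p = 1.17e-45). Of 7 tested genes of TREX-2 subunits and partners, these 4 were higher in thp1-5. The other 3, both DSS1 genes and NUP1, which encodes the basket nucleoporin that anchors the complex, had fold changes between −0.05 and 0.01 and were not called.

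Across all genes, 5150 of 22400 were called between the mutants (23.0%), 2703 higher (12.1%) and 2447 lower (10.9%) in thp1-5. Most of these differences were small. The median absolute fold change was 0.12 on the log2 scale, against 0.34 for thp1-5 and 0.37 for sac3bc when each was set against the same Col libraries, where 63.8% of genes were called in thp1-5 and 68.0% in sac3bc. A fold change of at least 2 was reached by 233 called genes (1.04%), of which 50 were higher (0.223%) and 183 lower (0.817%) in thp1-5, and one of at least 4 by 9 higher (0.0402%) and 28 lower (0.125%) genes, 0.165% in all. The mutants' libraries did not overlap for 93.4% of the called genes, against 34.7% of all genes tested. Under scaling by total counts alone, which moved the median of all genes to −0.048, the share of calls that were higher was 32.3% in place of 52.5%.

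**Figure D1:**
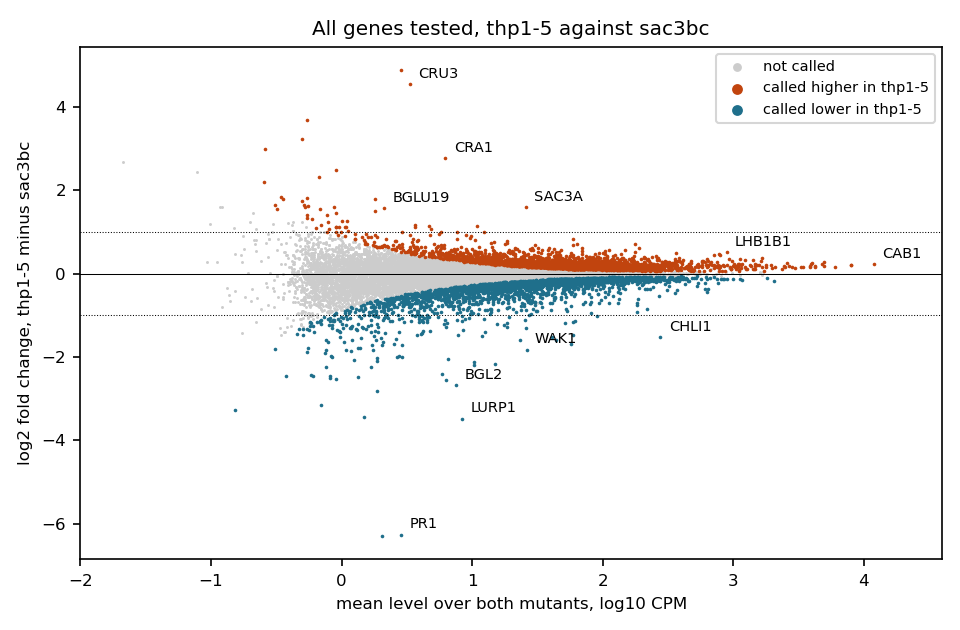
Fold change of thp1-5 minus sac3bc (log2, vertical) against the mean level of both mutants (log10 CPM, horizontal) for 22400 genes, with 1 point per gene and dotted lines at 2-fold. More genes lie beyond 2-fold below the zero line (183 called) than above it (50 called), and the highly expressed CAB1 sits just above it at 0.22.

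Genes of the salicylic acid response, the hormone pathway that drives defence against biotrophic pathogens, were often lower in thp1-5, and PR1, LURP1, BGL2 and PCC1 were among the genes with the most negative fold changes. Of 40 tested genes of salicylic acid synthesis, signalling and response, 24 were lower and 3 higher in thp1-5, with a median of −0.39 against 0.00 over all genes. Among them 11 were at least 2-fold lower. Over all genes tested 12.1% were higher and 10.9% lower, the shares to set beside this list and those below.

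PR1 (AT2G14610), the classical marker gene of this response, had 0, 2 and 1 counts in the thp1-5 libraries, against 95, 104 and 120 counts in the sac3bc libraries and 12, 8 and 20 counts in Col. Its level was therefore below Col in thp1-5 and above Col in sac3bc, with no overlap of any groups. Scaled for depth, sac3bc had 86.0 times the counts of thp1-5, with an exact 95% binomial interval of 29.2 to 419 that covers counting error only, and the fitted fold change was −6.26 ± 0.39 (SE, edgeR adjusted p = 1.08e-30).

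LURP1 (AT2G14560), a gene known for its induction by oomycete infection, had 1.12, 0.847 and 2.25 CPM in thp1-5, against 15.7, 15.5 and 14.8 CPM in sac3bc and 4.41, 5.67 and 4.50 CPM in Col. Here too thp1-5 was lowest and sac3bc highest, and the fold change was −3.48 ± 0.16 (SE, edgeR adjusted p = 9.09e-43). BGL2 (AT3G57260), which encodes the secreted glucanase PR2, had 2.01, 1.81 and 2.32 CPM in thp1-5, against 11.6, 14.4 and 13.0 CPM in sac3bc and 2.91, 2.13 and 2.1 CPM in Col. In this gene thp1-5 overlapped with Col while sac3bc stood above both, a fold change of −2.68 ± 0.15 (SE, edgeR adjusted p = 3.33e-34).

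PCC1 (AT3G22231), a small gene under pathogen and clock control, followed another order. It had 1.93, 1.86 and 1.69 CPM in thp1-5, against 9.79, 11.2 and 11.2 CPM in sac3bc and 26.4, 27.2 and 28.7 CPM in Col, so both mutants lay below Col and thp1-5 lay furthest below (−2.55 ± 0.15, SE, edgeR adjusted p = 4.35e-33). ACD6 (AT4G14400), an ankyrin gene that promotes salicylic acid accumulation, and PBS3 (AT5G13320), an enzyme gene of salicylic acid synthesis, were lower in thp1-5 by −1.60 ± 0.08 and −1.71 ± 0.27 (SE). In ACD6 the sac3bc libraries, at 35.4, 35.5 and 34.8 CPM, lay within the range of Col, at 29.4, 37.0 and 31.5 CPM. In PBS3 the sac3bc libraries, at 3.09, 2.26 and 2.55 CPM, lay below Col, at 7.94, 5.37 and 6.98 CPM. ICS1, which makes most of the pathogen-induced salicylic acid, differed by −0.37. The receptor genes NPR1, NPR3 and NPR4 had 0.06, −0.07 and −0.01 and were not called.

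**Figure D2:**
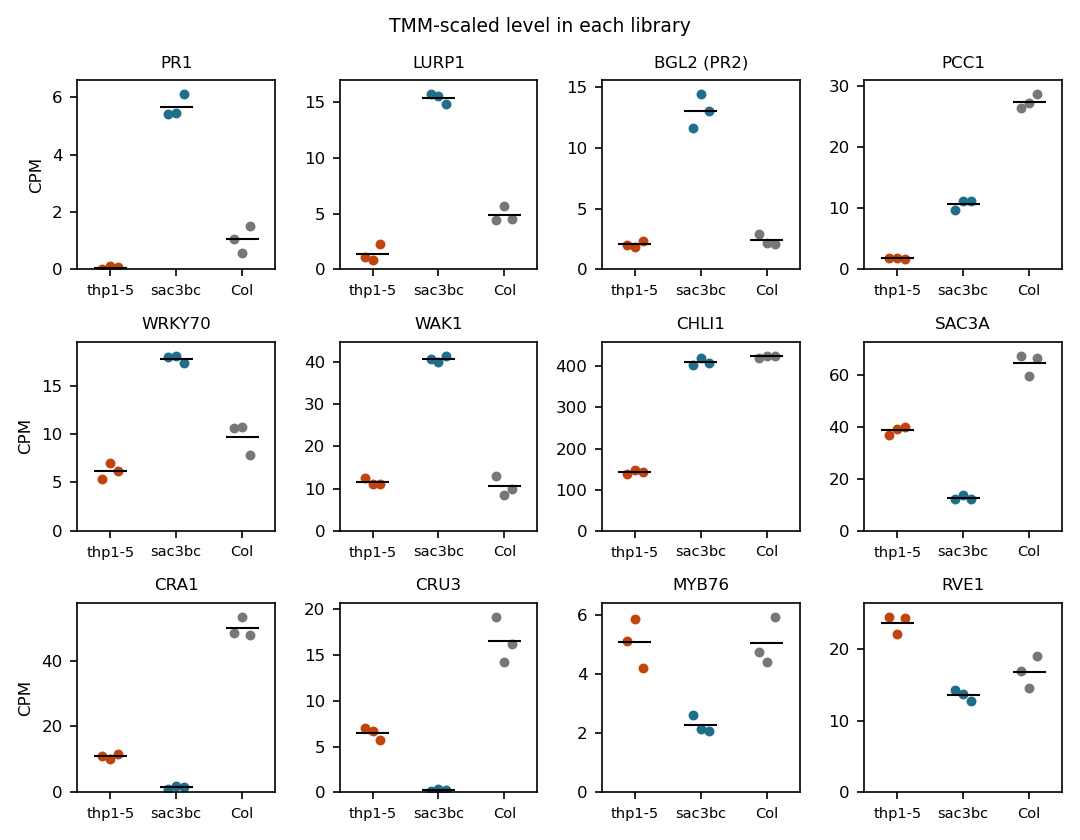
TMM-scaled level (CPM, vertical axis from 0) of 12 genes in each library, with 3 points per group and a black line at the group mean. In PR1, LURP1, BGL2, WRKY70 and WAK1 the sac3bc points stand above thp1-5 and Col, in CHLI1 thp1-5 alone is low, and in SAC3A, CRA1 and CRU3 sac3bc is lowest.

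Transcription factors and surface receptors of defence followed the same direction in part. Of 54 tested WRKY genes, a plant family of defence and senescence regulators, 14 were lower and 2 higher in thp1-5 (median −0.07). WRKY70 (AT3G56400), which acts downstream of salicylic acid, had 5.36, 7.06 and 6.19 CPM in thp1-5, against 17.9, 18.1 and 17.3 CPM in sac3bc and 10.6, 10.7 and 7.88 CPM in Col, with no overlap of groups (−1.5 ± 0.11, SE, edgeR adjusted p = 6.93e-26). WRKY46 was lower by −1.09 ± 0.18 and WRKY54 by −0.98 ± 0.27 (SE).

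Among cysteine-rich receptor-like kinases, which are membrane kinases induced by pathogens and oxidants, 12 of 33 were lower and 3 higher in thp1-5 (median −0.25), 6 of them at least 2-fold lower. CRK6 (AT4G23140) had 2.16, 2.49 and 2.04 CPM in thp1-5, against 6.64, 5.95 and 5.66 CPM in sac3bc and 0.706, 0.883 and 0.525 CPM in Col, so that thp1-5 lay between Col and sac3bc (−1.43 ± 0.18, SE, edgeR adjusted p = 2.4e-11). Its neighbours CRK5 and CRK7 were lower by −1.17 and −2.42, and the 3 adjacent loci form 1 of 3 runs of at least 3 neighbouring genes that were all called at least 2-fold lower. The other runs were 3 berberine-bridge-like oxidase genes starting with AT1G26380, and 4 loci starting with AT4G12485, of which 2 lie wholly on exonic bases of other loci. No such run was higher in thp1-5.

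Wall-associated kinases, receptors that bind pectin in the cell wall, included 5 of 12 lower and 0 higher members (median −0.42, and −0.21 without thp1-5 replicate 2). WAK1 (AT1G21250) had 12.6, 11.1 and 11.1 CPM in thp1-5, against 40.7, 39.9 and 41.5 CPM in sac3bc and 13.1, 8.61 and 9.90 CPM in Col. The thp1-5 and Col libraries overlapped and sac3bc was apart (−1.82 ± 0.08, SE, edgeR adjusted p = 1.33e-46). WAK3 was lower by −2.81 ± 0.31, and the receptor-like protein gene RLP23, whose product detects microbial NLP peptides, by −1.69 ± 0.23 (SE).

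Of 55 genes of pattern recognition and intracellular immune receptors, 20 were lower and 6 higher in thp1-5 (median −0.10). DESeq2 called 13 lower, and with loci that share exonic bases left out 9 of the remaining members were called lower. FRK1 (AT2G19190), a kinase gene used as a marker of flagellin perception, had 3.42, 2.09 and 2.53 CPM in thp1-5, against 7.27, 6.47 and 6.68 CPM in sac3bc and 1.32, 1.99 and 1.5 CPM in Col, and was apart from both (−1.37 ± 0.17, SE, edgeR adjusted p = 1.44e-11). The 6 higher genes made up no larger a share than the 12.1% over all genes. They include the receptor genes SNC1, RPP1 and RPP5 and differed by 0.10 to 0.29. Called higher were 2 members under scaling by total counts and 2 with overlapping loci left out.

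Promoters are shown for 3 of these defence genes because their sequence just before the annotated start holds a core of the W-box, the element that WRKY proteins bind. The sequences were taken from the RefSeq annotation of TAIR10.1 and give the 120 bases before the start, with TTGACC and TTGACT in capitals. FRK1 lies on the minus strand (chr2:8329945-8330064), CRK5 on the minus strand (chr4:12120221-12120340) and CRK6 on the plus strand (chr4:12121249-12121368).
FRK1: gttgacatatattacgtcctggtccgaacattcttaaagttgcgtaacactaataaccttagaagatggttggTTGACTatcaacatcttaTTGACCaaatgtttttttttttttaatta
CRK5: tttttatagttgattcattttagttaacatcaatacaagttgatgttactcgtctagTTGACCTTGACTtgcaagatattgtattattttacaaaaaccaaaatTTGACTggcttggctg
CRK6: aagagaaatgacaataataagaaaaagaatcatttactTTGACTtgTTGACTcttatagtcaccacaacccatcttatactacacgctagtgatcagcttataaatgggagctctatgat
FRK1 and CRK6 hold 2 matches each and CRK5 holds 3, of which a TTGACC and a TTGACT stand side by side. The windows of PR1, LURP1, PCC1, WRKY70 and WAK1, searched from 250 bases before to 50 after the start, held neither form. The window of BGL2 held 1 match.

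Jasmonate, ethylene and camalexin genes were also lower in thp1-5 in part. Of 37 genes of jasmonate synthesis and response, the wound and necrotroph defence hormone, 14 were lower and 2 higher (median −0.10). ORA59, an integrator of jasmonate and ethylene signals, was lower by −1.03 ± 0.18, the tyrosine aminotransferase gene TAT3 by −1.63 ± 0.25 and HEL, which encodes the chitin-binding protein PR4, by −0.70 ± 0.04 (SE). Of 30 ethylene genes, 9 were lower and 0 higher (median −0.18), and 15 were lower under scaling by total counts.

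Among genes of indole glucosinolates and camalexin, the main indolic defence compounds, 17 of 36 were lower and 3 higher (median −0.13). Cytochrome P450 genes of the indole route were mixed, with CYP83B1 lower by −0.38, CYP79B3 higher by 0.21 and CYP79B2, at −0.01, not called. PAD3 (AT3G26830), the last enzyme of camalexin synthesis, had 5.50, 5.03 and 5.07 CPM in thp1-5, against 11.8, 11.2 and 11.4 CPM in sac3bc and 3.97, 1.40 and 2.33 CPM in Col, a fold change of −1.14 ± 0.13 (SE, edgeR adjusted p = 4e-13) without overlap. GSTF6 and GSTF7, neighbouring glutathione transferase genes of high similarity between which reads may be split, were lower by −1.14 ± 0.05 and −1.18 ± 0.05 (SE).

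Of 26 genes of senescence and chlorophyll breakdown, 11 were lower and 3 higher (median −0.15). SAG13, a marker of senescence and stress, was lower by −2.23 ± 0.31, DIN11, a dioxygenase gene induced in darkness, by −1.99 ± 0.22 and NAP, a NAC factor of leaf senescence, by −0.62 ± 0.17 (SE).

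Root transcripts were lower in thp1-5 as well. Of 36 tested markers of roots and root hairs, 21 were lower and 1 higher (median −0.45). Their summed level was 440 to 462 CPM in thp1-5, against 558 to 567 CPM in sac3bc and 352 to 359 CPM in Col, and no member was at 0 in any group. In bulk seedlings, fewer cells of a type and less RNA per cell cannot be told apart.

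RSL4 (AT1G27740), the factor that sets root hair length, had 5.28, 5.03 and 5.07 CPM in thp1-5, against 8.19, 7.89 and 8.31 CPM in sac3bc and 2.56, 3.61 and 1.35 CPM in Col, with thp1-5 between the other groups (−0.67 ± 0.14, SE, edgeR adjusted p = 7.09e-05). RHS19, a peroxidase gene of root hairs, was lower by −0.69 ± 0.06 and EXPA7, an expansin gene of root hairs, by −0.63 ± 0.10 (SE). Outside the hair cells, CASP1, a scaffold of the Casparian strip in the endodermis, was lower by −0.41 ± 0.07 (SE). SCR and SHR, regulators of root patterning, stood at 0.13 and −0.07 and WOX5, a gene of the root stem cell niche, at 0.28, and these 3 were not called.

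Nutrient genes, many of them expressed in roots, were lower in thp1-5 beside these root markers, whose part in the result was not tested. Of 26 genes of phosphate starvation, 17 were lower and 0 higher in thp1-5 (median −0.28). SPX1 (AT5G20150), an intracellular phosphate sensor gene induced by shortage, had 80.4, 83.6 and 88.7 CPM in thp1-5, against 137, 137 and 140 CPM in sac3bc and 22.1, 29.5 and 29.9 CPM in Col. Every thp1-5 library lay above Col and below sac3bc (−0.71 ± 0.04, SE, edgeR adjusted p = 8.03e-26). MGDC, listed elsewhere as MGD3, a galactolipid synthase used when phosphate is short, was lower by −1.15 ± 0.17 and the ribonuclease gene RNS1 by −1.07 ± 0.21 (SE).

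Of 31 genes of sulfate uptake and assimilation, 12 were lower and 5 higher (median −0.10). APR3 (AT4G21990), a reductase of the assimilation route, had 141, 139 and 142 CPM in thp1-5, against 231, 228 and 228 CPM in sac3bc and 61.0, 60.7 and 61.5 CPM in Col (−0.71 ± 0.03, SE, edgeR adjusted p = 3.5e-48). The 3 groups did not overlap, and LSU3, a marker of sulfur shortage, was lower by −0.83 ± 0.08 (SE). Of 43 iron genes, 14 were lower and 5 higher (median −0.04), with 9 lower in DESeq2 and 9 lower without thp1-5 replicate 3. The iron regulators bHLH38 and bHLH39 were both lower by −0.67 ± 0.10 (SE), the first with 35.7% of its exonic bases shared with another locus.

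GPT2 (AT1G61800), a plastid glucose 6-phosphate translocator induced by sugar, had 10.2, 11.5 and 11.2 CPM in thp1-5, against 25, 26.6 and 27.7 CPM in sac3bc and 1.32, 1.47 and 1.13 CPM in Col (−1.27 ± 0.09, SE, edgeR adjusted p = 9.42e-28). As a whole, genes of sugar and starch response moved in both directions, with 15 of 41 higher and 10 lower (median −0.02).

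**Figure D3:**
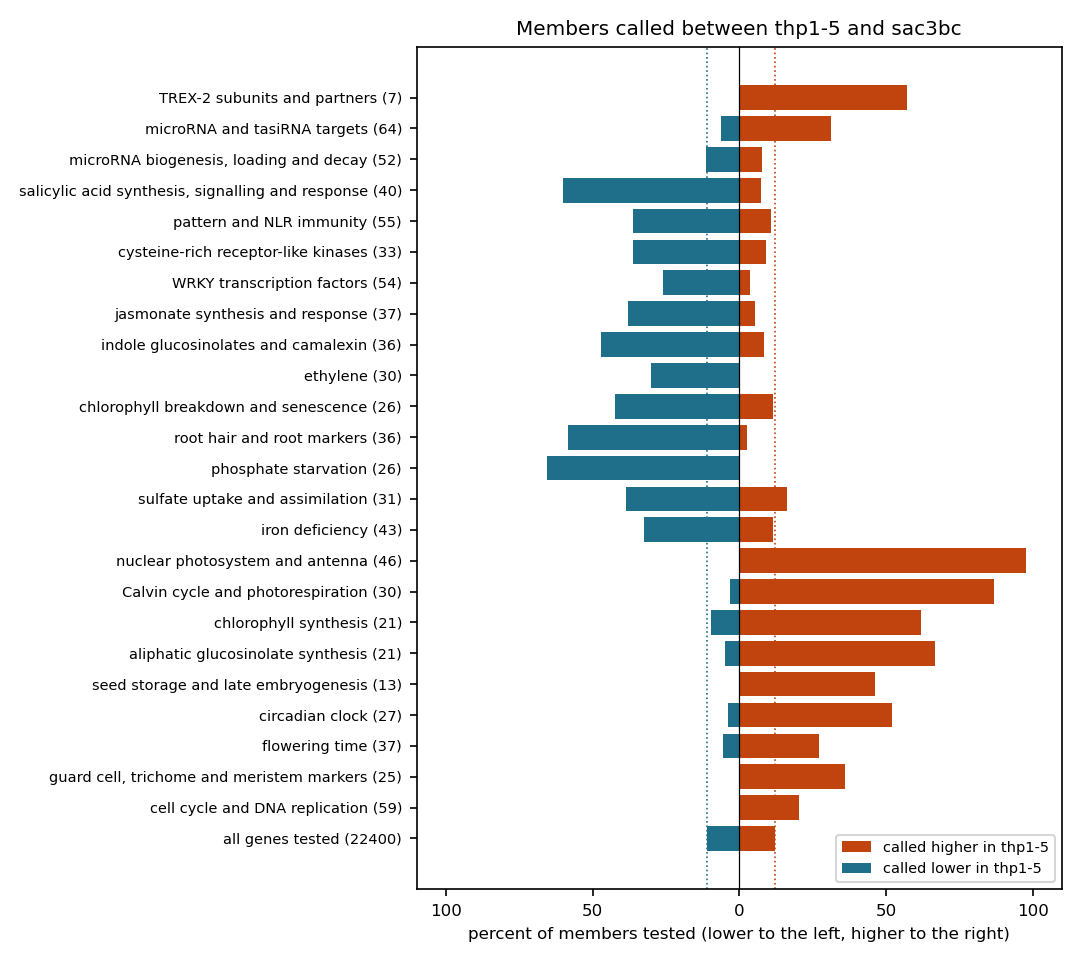
Percent of tested members called higher (to the right) and lower (to the left) in thp1-5 than in sac3bc for 24 gene lists and for all genes, with the number tested in brackets and dotted lines at 12.1% and 10.9%. Photosystem genes are nearly all on the higher side (97.8%), and phosphate starvation (65.4%), salicylic acid (60.0%) and root markers (58.3%) reach furthest on the lower side.

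Photosynthesis genes of the nucleus were higher in thp1-5, by small amounts. Of 46 tested genes of photosystems and antennae, 45 were higher and 0 lower (median 0.19), and of 30 genes of the Calvin cycle and photorespiration 26 were higher and 1 lower (median 0.22). The summed level of the photosystem genes was 108218 to 111384 CPM in thp1-5, against 94779 to 98228 CPM in sac3bc and 171465 to 174784 CPM in Col.

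LHB1B1 (AT2G34430), a light-harvesting protein of photosystem II, had 1089, 1040 and 1018 CPM in thp1-5, against 756, 726 and 728 CPM in sac3bc and 3478, 3365 and 3472 CPM in Col. Both mutants lay far below Col and thp1-5 lay above sac3bc (0.51 ± 0.02, SE, edgeR adjusted p = 5.93e-49), while near-identical antenna genes may share reads. RCA (AT2G39730), the activase of Rubisco, had 5583, 5424 and 5374 CPM in thp1-5, against 4575, 4435 and 4457 CPM in sac3bc and 7379, 7178 and 7313 CPM in Col (0.28 ± 0.02, SE, edgeR adjusted p = 1.56e-32). The order of the groups was the same. CA1, a carbonic anhydrase of the chloroplast, was higher by 0.37 ± 0.02 and GLDP1, a glycine decarboxylase subunit of photorespiration, by 0.32 ± 0.02 (SE).

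Chlorophyll synthesis followed this direction with 1 large exception. Of 21 genes, 13 were higher and 2 lower (median 0.12). GUN5, the H subunit of magnesium chelatase, the enzyme that puts magnesium into protoporphyrin, was higher by 0.30 ± 0.02, and CHLM, the methyltransferase of the next step, by 0.22 ± 0.03 (SE). The chelatase subunit gene CHLD and the second I subunit gene CHLI2 were higher by 0.18 and 0.11.

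CHLI1 (AT4G18480), the main I subunit of the same enzyme, had 139, 147 and 144 CPM in thp1-5, against 404, 420 and 408 CPM in sac3bc and 421, 426 and 424 CPM in Col. The thp1-5 libraries stood alone, 2.86-fold below sac3bc in the means, and sac3bc differed from Col by −0.04. Its fold change of −1.52 ± 0.03 (SE, edgeR adjusted p = 2.12e-91) was the opposite of that of the other called subunits. GLK1, a regulator of chloroplast development, was the other lower gene (−0.17). Whether the low CHLI1 level came from the named mutation or from another feature of the thp1-5 line was not tested.

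Among 105 tested loci encoded in the chloroplast, 29 were lower and 1 higher in thp1-5 (median −0.14), 8 of them at least 2-fold. Their summed level did not separate the mutants, with 5216 to 5627 CPM in thp1-5, against 5302 to 5406 CPM in sac3bc and 8988 to 10366 CPM in Col. The largest differences were in ATCG01090 (−1.71 ± 0.21) and ATCG00520 (−1.56 ± 0.23, SE). Plastid RNA is seldom polyadenylated, and these counts come from RNA selected for poly(A).

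Some seed storage transcripts were among those with the largest differences in the other direction. Of 13 tested genes of seed storage and late embryogenesis, 6 were higher and 0 lower in thp1-5 (median 0.55, and 0.17 without thp1-5 replicate 1), all 6 at least 2-fold. CRU3 (AT4G28520), the storage globulin cruciferin 3, had 94, 118 and 81 counts in thp1-5, against 2, 8 and 5 counts in sac3bc and 217, 193 and 216 counts in Col. Scaled for depth, thp1-5 had 24.2 times the counts of sac3bc, with an exact 95% binomial interval of 14.4 to 43.7, and the fitted fold change was 4.55 ± 0.26 (SE, edgeR adjusted p = 7.85e-34). Here thp1-5 lay between Col and sac3bc and no groups overlapped.

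CRA1 (AT5G44120), cruciferin 1, had 10.9, 10.1 and 11.7 CPM in thp1-5, against 0.973, 2.05 and 1.68 CPM in sac3bc and 48.5, 53.2 and 47.6 CPM in Col (2.77 ± 0.15, SE, edgeR adjusted p = 3.72e-36). The same order held outside the list for BGLU19, a glucosidase gene, at 1.58 ± 0.22 and for M17, a late embryogenesis gene, at 1.78 ± 0.27 (SE). Late embryogenesis genes of the list did not follow. EM6, LEA4-5, LEA7 and LEA14, at 0.55, −0.23, −0.35 and −0.05, were not called. SESA1, a storage albumin, was counted 46 times over the thp1-5 libraries and 4 times over the sac3bc libraries, a ratio of 14.2 with an exact 95% binomial interval of 5.19 to 54.4. The summed level of the 26 matched genes was 81.9 to 83.7 CPM in thp1-5, against 62.7 to 65.3 CPM in sac3bc and 184 to 190 CPM in Col. LEA14 alone made up a large part of these sums, with means of 43.5 CPM in thp1-5, 45.2 CPM in sac3bc and 82.0 CPM in Col.

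Promoters of 3 seed genes are shown because each holds the G-box CACGTG, which bZIP and bHLH factors bind, within 100 bases of its annotated start. The 120 bases before the start are given from the RefSeq annotation of TAIR10.1, all on the plus strand, with the G-box in capitals, for SESA1 (chr4:13607209-13607328), for PER1, a peroxiredoxin of seeds (chr1:17780309-17780428), and for OLEO1, an oil body protein (chr4:12900310-12900429).
SESA1: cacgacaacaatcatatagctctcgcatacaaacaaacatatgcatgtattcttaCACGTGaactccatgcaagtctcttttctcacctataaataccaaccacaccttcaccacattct
PER1: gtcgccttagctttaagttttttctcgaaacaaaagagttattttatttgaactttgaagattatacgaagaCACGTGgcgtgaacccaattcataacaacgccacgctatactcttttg
OLEO1: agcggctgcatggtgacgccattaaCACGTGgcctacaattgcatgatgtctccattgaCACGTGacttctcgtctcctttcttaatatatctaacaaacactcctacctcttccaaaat
The motif begins 65 bases before the start in SESA1, 48 in PER1, and 95 and 61 in OLEO1, whose promoter holds it in duplicate. PER1 and OLEO1 were higher in thp1-5 by 1.82 ± 0.46 and 1.62 ± 0.46 (SE).

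Over all genes called at least 2-fold, the promoter windows (250 bases before to 50 after the start, both strands) held the G-box in 29.5% of 44 genes higher and 5.62% of 160 genes lower in thp1-5, against 8.72% of all 20597. Either W-box core, TTGACC or TTGACT, stood in 8 of the 44 higher and 64 of the 160 lower genes (40.0%), against 32.5% of all. The forms differed, since TTGACC stood in 12.5% of the lower genes and 14.2% of all, and TTGACT in 33.1% of the lower genes and 21.8% of all. The paired heat shock element GAANNTTC was present in 4.55% of the higher and 18.8% of the lower genes, against 11.4% of all. Site II, TGGGCC, a motif of genes of growing tissue, was present in 9.09% of the higher and 4.38% of the lower genes, against 18.1% of all. These shares are descriptions of the sequence, with no test, and a match is not a site of binding.

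**Figure D4:**
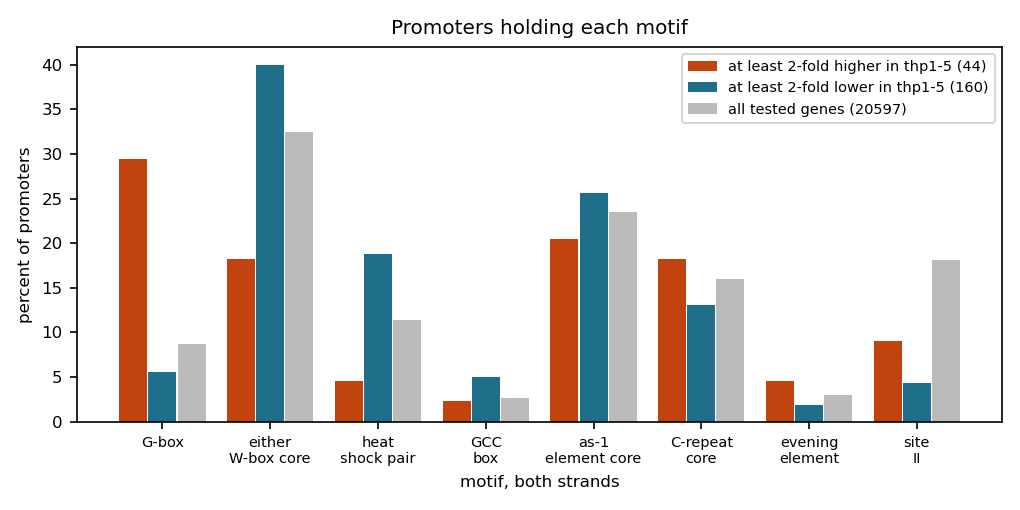
Percent of promoters (vertical) that hold each of 8 motifs among genes at least 2-fold higher (44) and lower (160) in thp1-5 and among all tested genes (20597). The G-box bar is highest for the higher genes (29.5%) and the W-box bar for the lower genes (40.0%).

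Genes of aliphatic glucosinolates, the methionine-derived defence compounds, were mostly higher in thp1-5. The joint list of indole glucosinolates and camalexin held more lower than higher members. Of 21 genes of aliphatic glucosinolate synthesis, 14 were higher and 1 lower in thp1-5 (median 0.15). MYB76 (AT5G07700), a regulator of the pathway, had 5.13, 5.87 and 4.22 CPM in thp1-5, against 2.63, 2.16 and 2.09 CPM in sac3bc and 4.76, 4.42 and 5.93 CPM in Col, so thp1-5 overlapped with Col and sac3bc was lower (1.16 ± 0.18, SE, edgeR adjusted p = 4.5e-08). Its relatives MYB29 and MYB28 were higher by 0.41 and 0.25, and MAM1, which elongates the methionine chain, by 0.38 ± 0.03 (SE).

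Of 27 clock genes, 14 were higher and 1 lower (median 0.13). RVE1 (AT5G17300), a morning-phased factor that links the clock to growth, had 24.5, 22.1 and 24.4 CPM in thp1-5, against 14.3, 13.8 and 12.8 CPM in sac3bc and 16.9, 14.6 and 19.1 CPM in Col. The thp1-5 libraries stood above all others (0.79 ± 0.08, SE, edgeR adjusted p = 2.08e-15). PRR5, a repressor of the evening, was higher by 0.42 ± 0.03 (SE). Other core genes were divided. TOC1, PRR7, ELF3 and LUX were higher by 0.16, 0.20, 0.19 and 0.16, while CCA1, LHY and GI, at 0.09, −0.24 and 0.05, were not called. No label gives the hour of harvest.

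Of 37 flowering time genes, 10 were higher and 2 lower (median 0.13). FLC, the repressor of flowering, was counted 13, 9 and 13 times in thp1-5, against 5, 3 and 6 times in sac3bc and 42, 26 and 46 times in Col (1.60 ± 0.48, SE, edgeR adjusted p = 0.00725), with 68.1% of its exonic bases shared with another locus. The mobile signal FT was not called at −0.16, and TEM1, a repressor of FT, was lower by −0.33 ± 0.05 (SE).

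Markers of the shoot epidermis, guard cells and meristem included 9 of 25 higher and 0 lower genes (median 0.15), with a summed level of 551 to 572 CPM in thp1-5, against 460 to 477 CPM in sac3bc and 625 to 659 CPM in Col. The meristem genes WUS and CLV3 were at 0 in both mutants. PDF1, a gene of the outermost cell layer, was higher by 0.56 ± 0.03 and KAT2, a potassium channel of guard cells, by 0.50 ± 0.11 (SE). SPCH and TMM of the same list were higher by 0.50 and 0.39. The guard cell genes KAT1, MYB60, FAMA, HT1 and SLAC1, at −0.09, 0.11, 0.09, 0.24 and 0.05, were not called. Of the meristem genes KNAT1 was higher by 0.40, while STM and CLV1, at 0.14 and −0.11, were not called. Of 59 genes of the cell cycle and DNA replication, 12 were higher and 0 lower (median 0.07). The called genes act late in the cycle in part. The mitotic cyclin CYCB2;3 was at 0.58 ± 0.08 and the activator of mitotic exit CDC20.1 at 0.57 ± 0.06 (SE). SYP111, the cytokinesis syntaxin KNOLLE, was at 0.41 ± 0.05 (SE). The D-type cyclins CYCD1;1, CYCD3;1 and CYCD3;2 were called too, at 0.17, 0.29 and 0.22. Of the mitotic cyclins, CYCB1;1, CYCB1;3 and CYCB1;4, at 0.14, −0.02 and 0.11, were not called. The replication genes MCM2 to MCM7 lay between −0.03 and 0.12 and were not called.

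Targets of small RNAs, the subject of the series title, were higher in thp1-5 in part, by less than 2-fold. Of 64 tested targets of microRNAs and trans-acting siRNAs, 20 were higher and 4 lower in thp1-5 (median 0.10). DESeq2 called 13 higher, scaling by total counts 12, and the fit without thp1-5 replicate 2 left 13. SULTR2;1 (AT5G10180), a sulfate transporter gene targeted by miR395, had 106, 114 and 108 CPM in thp1-5, against 77.2, 78.6 and 77.7 CPM in sac3bc and 242, 243 and 255 CPM in Col (0.49 ± 0.03, SE, edgeR adjusted p = 5.55e-26). The other miR395 targets, ATP sulfurylase genes, did not share 1 direction, with APS4 higher by 0.40 ± 0.04, APS3 lower by −0.18 ± 0.06 (SE) and APS1 at −0.01 and not called. The remaining 3 lower targets were the NAC genes NAC1 (−0.19) and ORE1 (−0.45), which are targeted by miR164, and AP2 (−0.25), a floral regulator targeted by miR172. SPL3, a target of miR156 that promotes the adult phase, differed by 0.49 ± 0.14 (SE), with 97.3% of its exonic bases shared with another locus. The targets PHV, TCP4 and ARF16 lay between −0.03 and −0.01 and were not called.

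Of 52 genes of microRNA production, loading and decay, 4 were higher and 6 lower (7.69% and 11.5%), near the 12.1% and 10.9% over all genes, and DESeq2 left 3 lower. AGO10, the Argonaute that sequesters miR165 and miR166 in the meristem, was higher by 0.27 ± 0.04, and AGO1, the main microRNA effector, by 0.09. DCL1, which cuts the precursors, stood at 0.13 and was not called. The scaffold genes RACK1B and RACK1C were lower by −0.22 ± 0.04 and −0.24 ± 0.05 (SE). Of 20 matched genes of the nuclear pore and mRNA export, out of 54 entries, 3 were higher and 3 lower (median −0.01), beside 12.1% and 10.9% of all genes. DESeq2 left 1 lower. NUA, the basket protein homologous to yeast Mlp1, was higher by 0.21 ± 0.03 (SE), a call lost when a trend on length and GC content was removed (edgeR adjusted p = 0.0631).

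Calls also followed the number of exons. Among 3309 intronless protein-coding genes 7.98% were higher and 12.8% lower in thp1-5 (median −0.043), and among 1387 genes with at least 15 exons 24.4% were higher and 5.19% lower (median 0.058). The share of higher calls and the median went up with each class in between. Longer genes have more exons, and the longest of 5 equal classes by length had 21.1% higher and 7.36% lower calls, against 8.69% and 12.2% in the shortest. With overlapping loci left out, genes with at least 15 exons had 26.3% higher and 4.52% lower calls. Under scaling by total counts all classes shifted down, to medians of 0.009 for genes with at least 15 exons and −0.092 for intronless genes, and their order was kept. The difference between higher and lower calls shrank in the classes with most exons and greatest length. Genes with at least 15 exons then had 14.4% higher and 10.3% lower calls, and the longest class by length 12.8% higher and 12.3% lower. For intronless genes the difference grew, to 5.65% higher and 17.9% lower calls. Genes with 8 to 14 exons changed sides, from 15.1% higher and 8.03% lower calls to 9.26% higher and 14.4% lower.

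**Figure D5:**
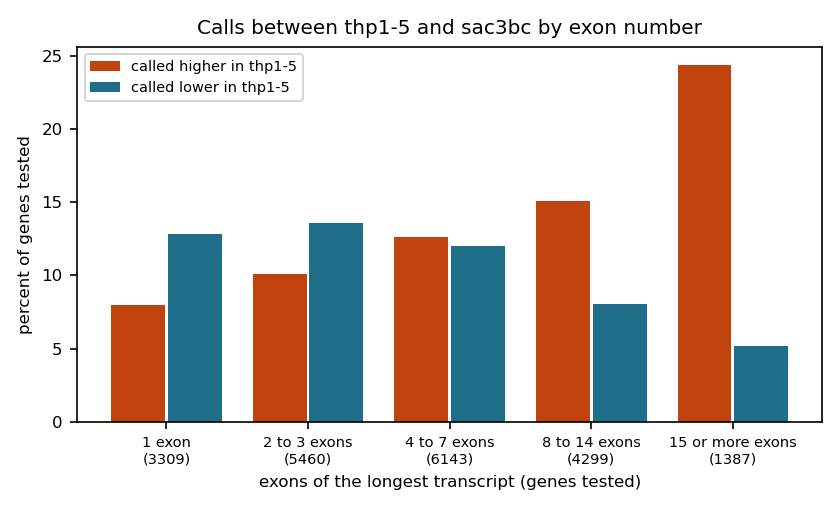
Percent of tested protein-coding genes (vertical, from 0) called higher and lower in thp1-5 than in sac3bc, by the number of exons of the longest transcript, with the number of genes in brackets. The higher share goes up with each class to 24.4% and the lower share is smallest, at 5.19%, for genes with 15 or more exons.

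At both ends of the fold change scale stood loci of unknown function. AT1G75945, an uncharacterized protein gene, was counted 0, 0 and 2 times in thp1-5, against 71, 89 and 68 times in sac3bc and 0, 1 and 2 times in Col, so that sac3bc alone was high. Scaled for depth, sac3bc had 92.2 times the counts of thp1-5, with an exact 95% binomial interval of 25.2 to 766. AT1G43590, annotated as a pseudogene, was counted 84, 81 and 83 times in thp1-5, against 4, 5 and 1 times in sac3bc and 20, 25 and 16 times in Col, which puts thp1-5 above and sac3bc below Col (4.88 ± 0.32, SE, edgeR adjusted p = 3.37e-29).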

How the data were processed

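Each library had a deposited table of read counts per gene with a gene length. Per the labels, poly(A) RNA was isolated from Trizol extracts, and libraries made with a NEBNext mRNA kit were sequenced on an Illumina HiSeq. The submitters' processing notes name STAR and DESeq2, with no version or role. No source used here states the counting program, genome build, annotation or strand setting, so reads of overlapping loci and of antisense partners could not be told apart. Of the 37361 loci, 37065 were found in the RefSeq table of TAIR10.1 by identifier, and for 99.51% of 37051 loci the deposited length equalled the union of the exons there.

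Counts of all 9 libraries were fitted in edgeR 4.0.16 (R 4.3.3) in 1 model of the 3 groups, with TMM factors, filterByExpr at a minimum count of 10 and the robust quasi-likelihood F-test (two-sided). The fit left 6 residual degrees of freedom, and edgeR's common BCV (biological coefficient of variation) came to 0.0284. SE is the absolute fold change over the square root of F, which is approximate and can be too small at few counts. The procedure was tested on simulated data. Alternatives were DESeq2 1.42.0, other scalings and filters, 6 libraries without Col, the replicate number as a block, no overlapping loci, a length and GC trend removed, and each library left out. Depth limits rare genes, and count intervals cover counting error only.

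The members and lists were chosen with earlier results of these data known. Named genes were the genotype genes, the 12 highest and 12 lowest called genes with a symbol, a mean of at least 2 CPM, no overlap of libraries and under 50% shared exonic bases, the 6 with the largest CPM difference and, in each direction, the 6 with the largest smaller effect among genes called in opposite directions against Col, and up to 4 called members per list. ACD6, PBS3, ICS1, the NPR genes, FLC, SESA1, PER1, OLEO1, SPX1, CASP1, AT1G75945, AT1G43590 and list members beyond 4 per list, such as those not called, were chosen after their values were seen. List medians and counts have no test. MIR loci were not analysed here.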

Additional observations from a re-analysis of the deposited data

Results flagged for a closer look

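The 12 genes below are only part of those in which the mutants departed from Col in opposite ways, namely the 6 in each direction whose smaller fold change against Col was largest under the conditions for named genes. In each, both mutants were called against Col, in opposite directions, and the difference between the mutants was itself called in edgeR. The effects against Col share the same Col libraries, so each value is given beside the direct fold change of thp1-5 minus sac3bc.

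There were 6 genes lower in thp1-5 than in sac3bc. PR1 differed by −6.26, with −3.83 in thp1-5 and 2.43 in sac3bc against Col. LURP1 differed by −3.48, with −1.83 in thp1-5 and 1.65 in sac3bc. PRX52, a cell wall peroxidase gene, differed by −2.02, with −0.98 in thp1-5 and 1.04 in sac3bc. ANK (AT5G54610), an ankyrin repeat gene, differed by −2.0, with −1.39 in thp1-5 and 0.61 in sac3bc. WRKY70 differed by −1.5, with −0.63 in thp1-5 and 0.87 in sac3bc. ABCG40, an importer of abscisic acid, differed by −1.13, with −0.63 in thp1-5 and 0.50 in sac3bc.

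The other 6 were higher. GA20OX2, an enzyme gene of gibberellin synthesis, differed by 0.92, with 0.45 in thp1-5 and −0.48 in sac3bc. RVE1 differed by 0.79, with 0.48 in thp1-5 and −0.31 in sac3bc. SCRM2, a bHLH gene of stomata and cold response, differed by 0.43, with 0.16 in thp1-5 and −0.27 in sac3bc. PRR5 differed by 0.42, with 0.17 in thp1-5 and −0.25 in sac3bc. MYB29 differed by 0.41, with 0.20 in thp1-5 and −0.22 in sac3bc. HSPRO2, a gene of basal resistance, differed by 0.40, with 0.20 in thp1-5 and −0.20 in sac3bc.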

How the results depend on the processing

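No call between the mutants was opposite in any of the 18 alternatives. DESeq2 made 3463 calls, with 1392 genes lower in thp1-5, against 5150 and 2447 in edgeR. Scaling by total counts gave 1765 higher and 3703 lower genes. A minimum count of 30 left 26 genes at least 2-fold higher and 108 at least 2-fold lower, of 20264 tested. The other alternatives that kept all libraries stayed within 1.5 times of these counts, also without overlapping loci, where 14380 genes were tested and 3574 called.

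Leaving out 1 library gave 4179 to 5171 calls, 2232 to 2700 higher and 1947 to 2471 lower, with 42 to 57 at least 2-fold higher and 180 to 201 at least 2-fold lower. With the replicate number as a block 5093 genes were called, 5037 of them among the 5150. Same-numbered libraries of the mutants deviated from their group means with correlations of 0.0149, 0.0205 and −0.00499, so the numbers were not taken to pair them. Of the named genes called in the main fit none changed sign. Among these, 25 lost their call in DESeq2, 6 under total counts, 5 with the length and GC trend removed and 8 to 22 with 1 mutant library left out. Differences of genes with few counts, such as PR1 and SESA1, are limited by depth.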

Other observations

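NRT2.5, a nitrate transporter gene of starved plants, had 7, 19 and 7 counts in thp1-5, against 37, 40 and 43 counts in sac3bc and none in the 3 Col libraries (−1.55 ± 0.31 between the mutants, SE, edgeR adjusted p = 2.84e-05). MSRB6, a methionine sulfoxide reductase gene, had 15.7, 15.2 and 18.4 CPM in thp1-5, against 8.93, 7.84 and 7.91 CPM in sac3bc and 70.1, 68.6 and 65.3 CPM in Col. The fold change was 1.00 ± 0.09 (SE), and BAM6, a beta-amylase gene, and PGL5, a sugar phosphate lactonase gene, were higher by 0.99 ± 0.13 and 1.00 ± 0.11 (SE). DOT3, a gene of vein patterning, was higher by 1.15 ± 0.15 (SE), in the same order of groups.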
